A study of Rattus norvegicus with 9 samples.

Results

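Hsd11b2, Hsd11b1, Nr3c1 and Nr3c2 encode the 2 enzymes that set the amount of active glucocorticoid inside a cell and the 2 receptors that the hormone binds. All probe sets annotated to 1 of these 4 genes alone were taken, which gave 4 of 4736 named genes and 7 of the 8740 probe sets tested: 1 for Hsd11b2, 1 for Hsd11b1, 3 for Nr3c1 and 2 for Nr3c2. No probe set named a member together with another gene. Hsd11b2 was picked because earlier results of these arrays placed it among the genes past the adjusted test for BMP24h over control, so its levels are given as a description without a test. The other 3 genes were added for their roles.

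RNA came from sympathetic neurons of the superior cervical ganglia of Holtzman rat embryos at day 21, grown without serum and with nerve growth factor at 100 ng/ml, and given Ara-C, which kills dividing cells, for 48 hr to deplete other cells. On day 5 in culture they received recombinant human BMP-7, a bone morphogenetic protein, at 50 ng/ml for 6 hr (BMP6h) or 24 hr (BMP24h), or medium alone for 24 hr (control). Each of the 3 conditions had 3 arrays (Affymetrix, rat genome), 1 from each of 3 dissections, and each array held RNA pooled from several cultures. The values are log2 expression values with the batch difference already removed. The first replicates formed batch 1, for which 10 µg of cRNA was used, and the others formed batch 2, for which 5 µg was used. All groups share the nerve growth factor and Ara-C.

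Glucocorticoids reach cells as active corticosterone, the main glucocorticoid of the rat, and as an inert 11-keto form. The enzyme of Hsd11b2 oxidizes the active form to the inert one, while that of Hsd11b1 mainly works in the other direction in intact cells. Nr3c1 encodes the glucocorticoid receptor and Nr3c2 the mineralocorticoid receptor, and corticosterone binds both. In aldosterone target cells such as those of the kidney collecting duct, Hsd11b2 keeps glucocorticoid away from the mineralocorticoid receptor. In the sympathoadrenal lineage, glucocorticoids are known for promoting the adrenal chromaffin phenotype, including expression of Pnmt, the enzyme that makes adrenaline.

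Among 7 textbook BMP targets, 5 were measured, each of them with a mean above control at both times. Of these, 2 (Id2 and Id3) rose at 6 hr and 4 (Id1, Id2, Id3 and Nog) at 24 hr. Over all probe sets, 0.0458% and 0.217% passed the adjusted test at these times. The other target, Smad7, had 24 hr arrays that overlapped with control. The 14 measured neuron markers of 20 listed had a mean log2 value between 11.07 and 11.44 on every array, and tyrosine hydroxylase (Th), the first enzyme of noradrenaline synthesis, averaged 13.49 ± 0.01 (SD, n = 3) in control cultures. BMP6h replicate 2 stood apart, with 9.99% of probe sets lying over 1 log2 unit away from its fellow replicates' mean, against at most 4.21% on any other array. Differences are limma estimates with condition and batch as terms, p-values carry a Benjamini-Hochberg adjustment over all 8740 probe sets. With 3 arrays per condition, precision is limited by that number.

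Hsd11b2 was the member with the highest values after 24 hr of BMP-7 relative to control. Its log2 values were 6.61, 6.45 and 6.18 in control cultures, 6.68, 6.41 and 7.08 after 6 hr and 7.88, 8.10 and 8.11 after 24 hr, in the order of replicates 1 to 3. The lowest 24 hr array lay 1.27 log2 units above the highest control array and 0.80 above the highest 6 hr array, while the 6 hr and control arrays overlapped. The means were 6.41 ± 0.22 in control cultures, 6.73 ± 0.34 at 6 hr and 8.03 ± 0.13 at 24 hr (SD, n = 3 each).

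The log2 difference of Hsd11b2 was 1.62 (standard error 0.20) for BMP24h over control, a 3.07-fold difference, and 1.30 (standard error 0.20) for BMP24h over BMP6h, a 2.47-fold difference. For BMP6h over control it was 0.31 (standard error 0.20), or 1.24-fold. Of all 8740 probe sets it had the difference of rank 12 from the highest for BMP24h over control, rank 5 for BMP24h over BMP6h and rank 967 for BMP6h over control. These ranks describe the values that led to its choice. Across all probe sets, 5.61% had BMP24h arrays wholly above the control arrays and 5.63% had them wholly above the BMP6h arrays.

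The 6 hr difference of Hsd11b2 depended on BMP6h replicate 3, the highest of its condition at 7.08. Without that array the 6 hr difference was 0.12 on the log2 scale, and without control replicate 3 it was 0.19. When any 1 array was left out, it ran from 0.12 to 0.485. The 24 hr difference was between 1.49 and 1.76 when any 1 array was left out. Within batch 2 it was 1.79, and within batch 1, which holds 1 array per condition, it was 1.27.

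**Figure D1:**
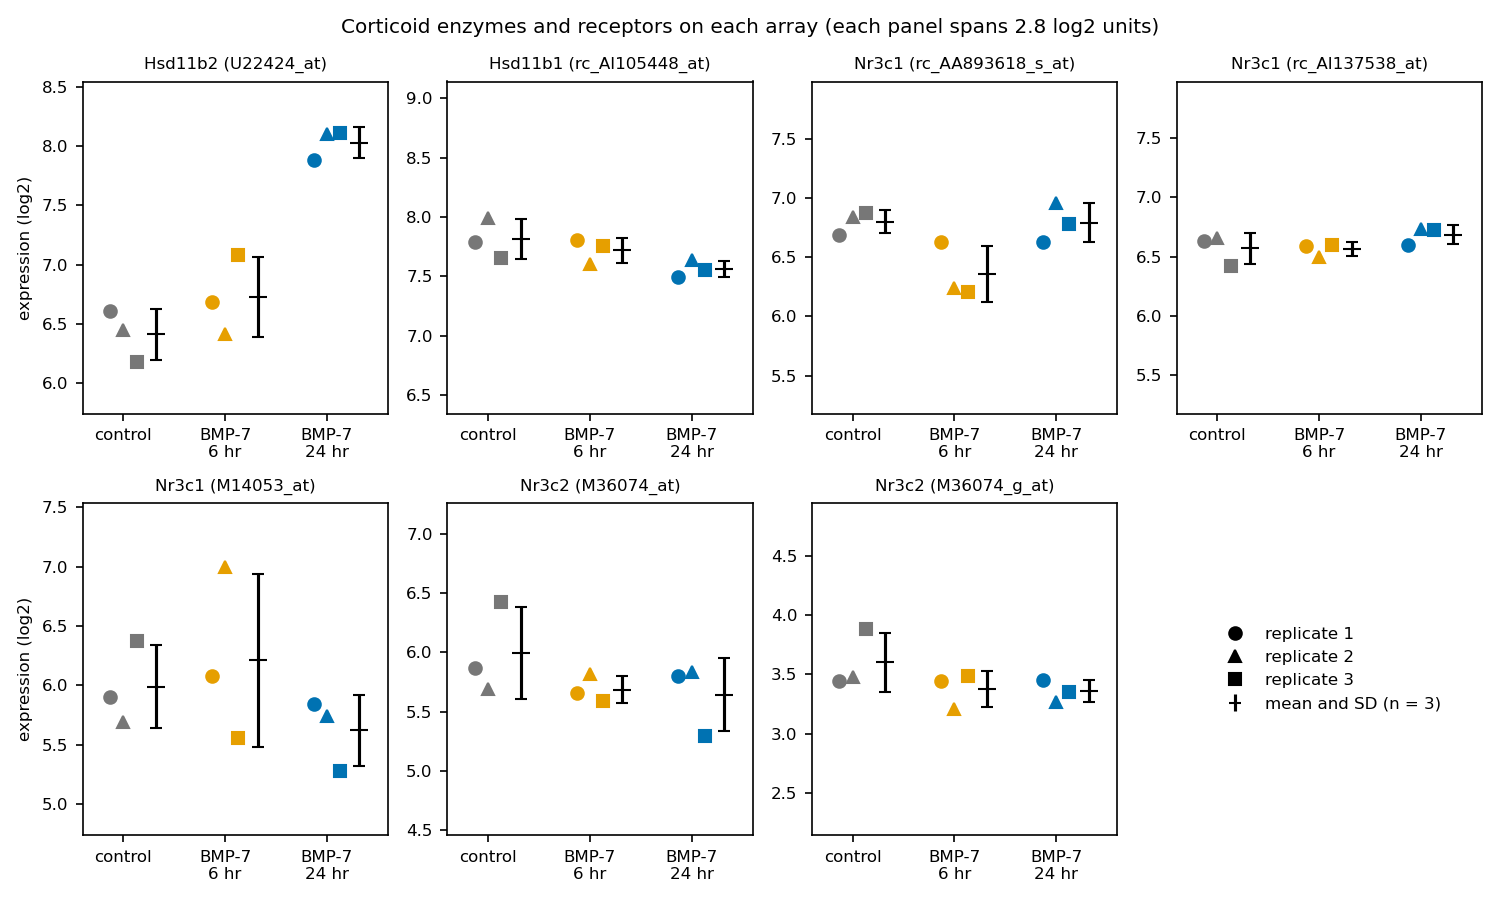
Expression (log2, y axis) of the 7 probe sets on each array in control, BMP6h and BMP24h cultures (circle, triangle and square for replicates 1, 2 and 3), with mean and SD (n = 3) beside them. For Hsd11b2 the 24 hr arrays lie between 7.88 and 8.11, above all control and 6 hr arrays, and no other panel has a shift of that size.

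The probe sets of Hsd11b1, Nr3c1 and Nr3c2 were not chosen on their values, and their differences were tested. In limma none of the 6 passed the adjusted test for BMP6h over control, BMP24h over control or BMP24h over BMP6h, where 0.0458%, 0.217% and 0% of all probe sets did. At an unadjusted p under 0.05 there was 1 at 6 hr, 0 at 24 hr and 1 between the times, where 1.73%, 3.4% and 2.96% of all probe sets passed. An unmoderated two-way analysis of variance, as in the Methods, gave the same 3 counts and also none after adjustment, where 0 of all probe sets passed. Its unadjusted share over all probe sets was not worked out. Of the 6, 5 had lower values and 1 had a higher value in BMP24h than in control cultures, with a median log2 difference of -0.25, while the median over all probe sets was 0.007 and 51.8% were higher.

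Hsd11b1, which regenerates active glucocorticoid, had log2 values of 7.50, 7.63 and 7.55 at 24 hr, against 7.79, 7.99 and 7.65 in control cultures. At 6 hr it had 7.80, 7.60 and 7.75. All 24 hr arrays lay below all control arrays, by a gap of 0.02 log2 units, as did 7.07% of all probe sets, and the 6 hr arrays overlapped with both.

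The log2 difference of Hsd11b1 for BMP24h over control was -0.25 (standard error 0.13, 95% interval -0.56 to 0.06, limma adjusted p = 1), or 0.84-fold. The interval leaves room for a level as low as 0.68-fold and as high as 1.04-fold of control. For BMP6h over control it was -0.09 (standard error 0.13, adjusted p = 0.910) and for BMP24h over BMP6h it was -0.16 (standard error 0.13, adjusted p = 0.939). Without control replicate 2 the 24 hr difference was -0.15, and the within-batch values were -0.29 in batch 1 and -0.23 in batch 2.

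Markers of 2 other kinds of cell had lower mean levels on the same arrays, although in limma none of their genes passed the adjusted test at 24 hr. For fibroblasts and matrix, the 17 measured of 18 listed had a mean log2 level of 9.30 to 9.50 on the 24 hr arrays, against 9.54 to 9.75 on the control arrays, and 12 of the 17 had lower and 5 higher values at 24 hr (median log2 difference -0.18). The lowest of the 17 was Dcn, a matrix proteoglycan. It averaged 9.05 at 24 hr and 9.78 in control cultures (adjusted p = 0.324 in limma). The highest, Thy1, had a log2 difference of 0.25 (standard error 0.13), and Col1a1 had 0.08 (standard error 0.13). These genes were chosen after their values were seen. For endothelial and mural cells, the 9 measured of 12 listed had a mean log2 level of 6.82 to 6.88 on the 24 hr arrays, against 6.92 to 7.08 on the control arrays. Of the 9, 5 had lower and 4 higher values (median log2 difference -0.12). The lowest, Kdr, had -1.39 (standard error 0.56) with overlapping arrays, so it weighs heavily in the list's mean. The next lowest, Myh11, had -0.39, and the highest, Acta2, had 0.32, all named after their values were seen. The levels of the neuron, chromaffin cell, satellite glia and Schwann cell, and macrophage and blood cell markers overlapped between 24 hr and control arrays. Hsd11b1 is known from fibroblasts as well as liver and fat cells, and the part of these markers in its values was not tested. In pooled cultures, fewer cells of a type and less RNA per cell cannot be told apart.

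The difference between the log2 values of the 2 enzymes (Hsd11b2 minus Hsd11b1) moved with time in BMP-7. It was -1.18, -1.54 and -1.48 in control cultures, -1.12, -1.19 and -0.67 at 6 hr and 0.38, 0.47 and 0.56 at 24 hr. Relative to control, its mean had shifted by 0.41 at 6 hr and by 1.87 at 24 hr, a 3.65-fold shift of the ratio. The probe sets differ in their response to RNA, so the sign of a value does not say which transcript was more abundant. The shift rests mainly on Hsd11b2 and is a description, since that gene was chosen for its values.

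Nr3c1, the glucocorticoid receptor, had 3 probe sets that did not move together. The probe set rc_AA893618_s_at had log2 values of 6.63, 6.24 and 6.21 at 6 hr, against 6.69, 6.84 and 6.87 in control cultures. At 24 hr it had 6.63, 6.96 and 6.78. The 6 hr arrays lay below all control arrays, as for 6.96% of all probe sets, and below all 24 hr arrays, and the 24 hr and control arrays overlapped.

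This probe set had a log2 difference of -0.44 for BMP6h over control (standard error 0.16, limma unadjusted p = 0.0256, adjusted p = 0.887), or 0.74-fold. For BMP24h over BMP6h it was 0.43 (standard error 0.16, unadjusted p = 0.0281, adjusted p = 0.939), and for BMP24h over control it was -0.01 (standard error 0.16, 95% interval -0.38 to 0.36). The batches differed: within batch 2 the 6 hr difference was -0.63, and within batch 1 it was -0.06. Without BMP6h replicate 2, the array that stood apart, it was -0.38.

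The other Nr3c1 probe sets did not show lower values on all 6 hr arrays. For rc_AI137538_at the log2 values were 6.59, 6.50 and 6.60 at 6 hr, against 6.63, 6.66 and 6.42 in control cultures, and 6.60, 6.74 and 6.73 at 24 hr. All 9 arrays fell within 6.42 to 6.74, the narrowest range among the 7 probe sets. Its log2 difference was -0.01 at 6 hr (95% interval -0.29 to 0.27) and 0.12 at 24 hr (95% interval -0.16 to 0.40), both over control, with adjusted p of 0.993 and 1 in limma.

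The third, M14053_at, had the largest standard error of the 7 probe sets, 0.37. Its log2 values were 6.08, 7.00 and 5.56 at 6 hr, against 5.90, 5.69 and 6.37 in control cultures, and 5.84, 5.74 and 5.28 at 24 hr. The highest value was on BMP6h replicate 2, and the 6 hr difference was 0.22 with that array and -0.20 without it. At 24 hr the log2 difference over control was -0.37 (standard error 0.37, limma adjusted p = 1). Its 95% interval of -1.23 to 0.50 allows a level between 0.43-fold and 1.41-fold of control.

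Nr3c2, the mineralocorticoid receptor, had slightly lower mean values in both BMP-7 conditions at both of its probe sets, within the spread of the arrays. M36074_at had log2 values of 5.81, 5.84 and 5.29 at 24 hr, against 5.87, 5.69 and 6.43 in control cultures, and 5.65, 5.81 and 5.59 at 6 hr. The groups overlapped, and control replicate 3 was the highest of all 9 arrays. The log2 difference for BMP24h over control was -0.35 (standard error 0.23, 95% interval -0.89 to 0.19, limma adjusted p = 1), and -0.11 without control replicate 3.

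M36074_g_at gave 3.45, 3.27 and 3.35 at 24 hr, against 3.44, 3.48 and 3.89 in control cultures, and 3.45, 3.20 and 3.49 at 6 hr. Values on the arrays began at 2.69, so this probe set lay near the low end of the scale, where little can be said of change. Its log2 difference over control was -0.24 at 24 hr (standard error 0.16, limma adjusted p = 1) and -0.22 at 6 hr (adjusted p = 0.887). Without control replicate 3 these were -0.09 and -0.07, and within batch 1 they were 0.01 and 0.003.

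**Figure D2:**
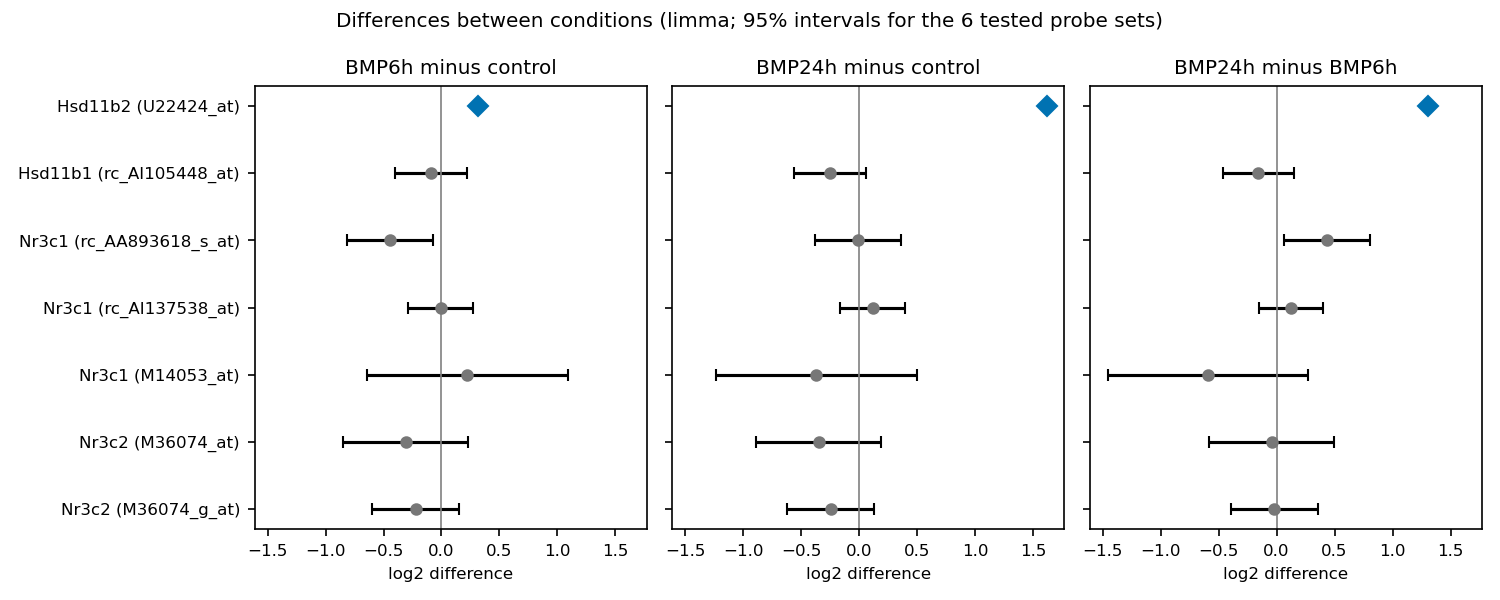
Log2 difference (x axis) of each probe set (y axis) for BMP6h over control, BMP24h over control and BMP24h over BMP6h. Bars are 95% intervals of limma for the 6 tested probe sets; Hsd11b2, chosen for its values, is a diamond without an interval, at 0.31, 1.62 and 1.30.

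Targets and partners of the 2 receptors were taken from 5 lists with 113 different measured genes beside the members, each at its brightest probe set. In limma no gene passed the adjusted test in any of the 3 comparisons. Among all probe sets, 44.9% had higher values than control at 6 hr and 51.8% at 24 hr. The counts of higher and lower genes in each list below stand against these shares. At an unadjusted p under 0.05 there were 7 at 6 hr (6.19%), 5 at 24 hr (4.42%) and 7 between the times (6.19%), against 1.73%, 3.4% and 2.96% of all probe sets. An unmoderated two-way analysis of variance gave 4, 3 and 6 at that threshold and none after adjustment, where 0 of all 8740 probe sets passed. Its unadjusted share over all probe sets was not worked out, so its unadjusted counts have no background to be read against.

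Glucocorticoid receptor targets had 25 measured genes of 38 listed. At 24 hr 8 had higher and 17 lower values than control, with a median log2 difference of -0.09 against 0.007 over all probe sets, and none rose or fell. At 6 hr 9 were higher and 16 lower (median -0.08, all probe sets -0.02). The highest at 24 hr was Dusp1, a phosphatase of MAP kinases, with 8.87, 9.00 and 8.98 at 24 hr, against 8.68, 8.64 and 8.38 in control cultures. Its 24 hr arrays lay above all control arrays.

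The 3 probe sets of Dusp1 were all higher than control and differed in size. At the brightest, U02553cds_s_at, the log2 difference was 0.78 at 6 hr and 0.39 at 24 hr (limma adjusted p = 0.887 and 1). For S81478_s_at, the log2 difference at 6 hr was 1.14 (standard error 0.13) and passed, with a limma adjusted p of 0.0483, whereas 0.83 at 24 hr did not (adjusted p = 0.0775). At 6 hr 4 of all probe sets passed, and 0 did in the two-way analysis of variance or when control replicate 1, the first BMP6h array or replicate 2 of BMP24h was left out, so the call is lost there. Dusp1 is also known as an early response gene of many growth factors.

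The other ends of the list did not pass either. Pdk4, a kinase that restrains pyruvate oxidation, had 0.36 at 24 hr (standard error 0.41), and Crh, the hypothalamic hormone that starts the stress axis, had 0.19 (standard error 0.50). Lcn2, a secreted lipocalin, had -0.72 (standard error 0.39), Tat, a liver enzyme of tyrosine breakdown, -0.66 (standard error 0.30) and Txnip, an inhibitor of thioredoxin, -0.29 (standard error 0.17). Crh and Tat lay low on the scale, with means of 4.12 and 4.47 over the 9 arrays, whose values began at 2.69. In the whole list, 5 of the 25 genes, Lcn2, Tat and Txnip among them, had 24 hr arrays below all control arrays and 2 had them above, against 7.07% and 5.61% of all probe sets. Over the 113 genes of the 5 lists together, 15 had 24 hr arrays wholly above or wholly below control. Of all probe sets, 5.61% lay wholly above and 7.07% wholly below. The mineralocorticoid receptor targets had 0 in either direction. Limma adjusted p was 1 for the 5 genes given values here. Without control replicate 3, Lcn2 had -0.40 and Tat -0.34. Pnmt, named after its values were seen, had a log2 difference of -0.18 for BMP24h over control (standard error 0.20, limma adjusted p = 1). It averaged 7.93 ± 0.36 at 24 hr and 8.11 ± 0.10 in control cultures (SD, n = 3 each).

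Mineralocorticoid receptor targets had 13 measured genes of 19 listed beside Hsd11b2. At 24 hr 8 were higher and 5 lower than control (median log2 difference 0.13), and at 6 hr 5 were higher and 8 lower (median -0.06). None passed the adjusted test. The sodium channel subunits Scnn1b and Scnn1a, classical aldosterone targets, had 0.36 (standard error 0.32) and 0.26 (standard error 0.31) at 24 hr. Ndrg2 had 0.52 (standard error 0.34), with control replicate 1 at 7.55 and all other arrays between 8.49 and 9.18.

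At the low end, Sgk1, a kinase that both receptors induce, had -0.22 at 24 hr (standard error 0.39). Nedd4, a ubiquitin ligase, had -0.31 (standard error 0.22) and the peptide Edn1 had -0.26 (standard error 0.31). Sgk1 had 7.66 on BMP6h replicate 2, and its other arrays ranged from 5.76 to 6.44.

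Receptor chaperones and immunophilins, a list of cytosolic proteins that hold unliganded receptors ready for hormone and of related heat shock proteins, some of the endoplasmic reticulum, had 14 measured genes of 20 listed. At 24 hr 4 were higher and 10 lower than control (median log2 difference -0.07), and at 6 hr 8 were higher and 6 lower (median 0.07). None passed. Hspa5, the chaperone of the endoplasmic reticulum, had the highest value at 24 hr, with 0.32 (standard error 0.19, limma adjusted p = 1), and its 3 probe sets shared that direction. Stip1, an Hsp70 and Hsp90 organizing protein, had 0.11 and Hsp90b1 had 0.08, while Ppid, the immunophilin cyclophilin 40, had -0.62 (standard error 0.52), Hspa1l -0.20 and Dnajb1 -0.18. Hsp90b1, like Hspa5, belongs to the endoplasmic reticulum. Without control replicate 3, Ppid had -0.16, and without BMP24h replicate 2 it had -0.23.

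Steroid synthesis and metabolism had 29 measured genes of 41 listed. At 24 hr 16 were higher and 13 lower than control (median log2 difference 0.004). At 6 hr 9 were higher and 20 lower (median -0.05), where 44.9% of all probe sets were higher. None passed. Their highest value at 24 hr was 0.15, for Cyp11a1, which starts steroid synthesis from cholesterol. Hsd17b7 also had 0.15 and Rdh16 0.12. At the other end, Akr1d1, a steroid 5-beta reductase, had -0.64 (standard error 0.27), Cyp7b1, an oxysterol hydroxylase, -0.54 (standard error 0.34) and Cyp11b2, aldosterone synthase, -0.37 (standard error 0.27), all with limma adjusted p of 1. A second Akr1d1 probe set had 0.07. Akr1d1 had -0.36 without control replicate 3, and Cyp11b2 had -0.11 without BMP24h replicate 3.

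Nuclear receptors and coregulators had 34 measured genes of 48 listed. At 24 hr 19 were higher and 15 lower than control (median log2 difference 0.04). At 6 hr 11 were higher and 23 lower (median -0.08), where 44.9% of all probe sets were higher. None passed. Nr1h3, the oxysterol receptor LXR alpha, had 0.39 at 24 hr (standard error 0.22), Ncoa1, a steroid receptor coactivator, 0.31 (standard error 0.32) and Rxrg, a retinoid X receptor, 0.18 (standard error 0.18). The other Rxrg probe sets had -0.0012 and 0.021 at 24 hr. At 6 hr Rxrg had 0.76 (standard error 0.18, limma adjusted p = 0.887), with arrays at 7.78, 8.10 and 7.44 at 6 hr, against 7.08, 7.05 and 6.90 in control cultures, and its 3 probe sets were all higher at 6 hr.

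Nr5a1, the steroidogenic factor of adrenal and gonad, had the lowest value of the list at 24 hr. It had 6.44, 6.11 and 6.32 at 24 hr, against 6.58, 6.98 and 7.83 in control cultures, a log2 difference of -0.84 (standard error 0.33, limma adjusted p = 1). Nr2f2, an orphan receptor, had -0.61 (standard error 0.48) and Nr1d2, a clock repressor, -0.58 (standard error 0.25). In all 3 genes control replicate 3 was the highest of the 9 arrays, and without it Nr5a1 had -0.46, Nr2f2 -0.017 and Nr1d2 -0.29. Nr2f2 and Nr1h3 lay low on the scale, with means of 4.20 and 4.51 over the 9 arrays. Over the 113 list genes the array farthest from the mean of the others was BMP6h replicate 2 for 45.1% and control replicate 3 for 19.5%, against 42.1% and 21.6% over all probe sets.

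**Figure D3:**
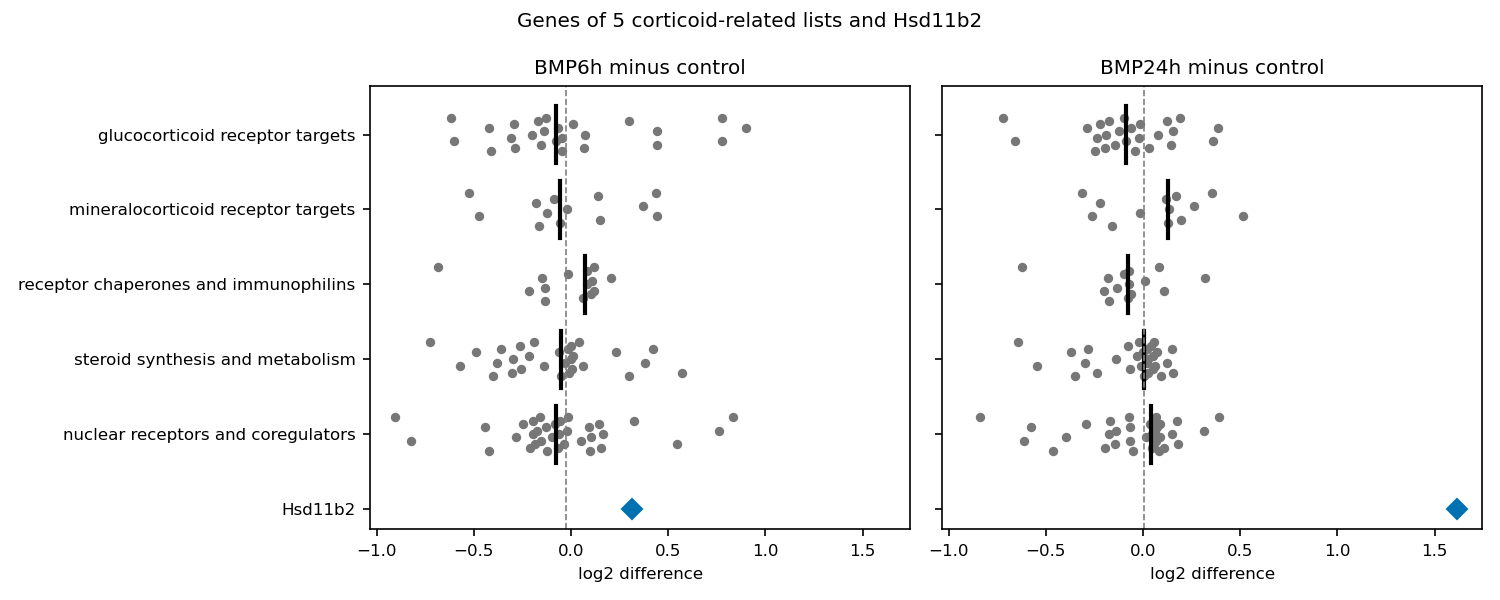
Log2 difference over control (x axis) at 6 hr and 24 hr of each gene (grey points) of the 5 lists, with the list's median (black bar), the median of all probe sets (dashed line) and Hsd11b2 (diamond). At 24 hr the listed genes lie between -0.84 and 0.52, and Hsd11b2 lies at 1.62.

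The genes whose values ran most like those of Hsd11b2 over the 9 arrays were found by Pearson correlation with the brightest probe set of each of 4735 other genes. The arrays fall into 3 conditions, the correlation holds both the differences between conditions and those within them, and no test was made. The highest r, 0.96, belonged to Gfra2, which binds neurturin. Its log2 values were 9.31, 9.06 and 9.25 at 24 hr, against 7.45, 7.37 and 7.62 in control cultures, and 7.68, 7.60 and 7.99 at 6 hr. As for Hsd11b2, BMP6h replicate 3 was the highest of the 6 hr arrays.

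Polr3a, an RNA polymerase III subunit, and Mogs, a glucosidase of glycoprotein processing, had r of 0.96 and 0.95 with differences of 0.14 and 0.22 at 24 hr on the log2 scale. Fgfbp3, which binds fibroblast growth factors, had 0.57 at 24 hr (r = 0.95), and Slc12a7, a potassium chloride cotransporter, 0.58 (r = 0.94). The most opposite were Ptger3, a prostaglandin E receptor (r = -0.98), Acsl1, which activates long-chain fatty acids (r = -0.97), and Dync1h1, the dynein heavy chain (r = -0.96), with -0.17, -0.54 and -0.26 at 24 hr. After the mean of each condition was taken off, r was 0.31 for Gfra2, 0.71 for Polr3a, 0.67 for Mogs, 0.53 for Fgfbp3 and 0.44 for Slc12a7. It was -0.94 for Ptger3, -0.65 for Acsl1 and -0.50 for Dync1h1. The genes were picked on r over the same arrays, which holds this within-condition part. These values are therefore not independent of the choice. The other probe sets of Ptger3 had r of -0.22 and -0.54 and those of Acsl1 had -0.15, -0.29 and -0.96. Among the other members, r with Hsd11b2 ran from -0.63 for M14053_at to 0.72 for rc_AI137538_at, both probe sets of Nr3c1, and was -0.58 for Hsd11b1.

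**Figure D4:**
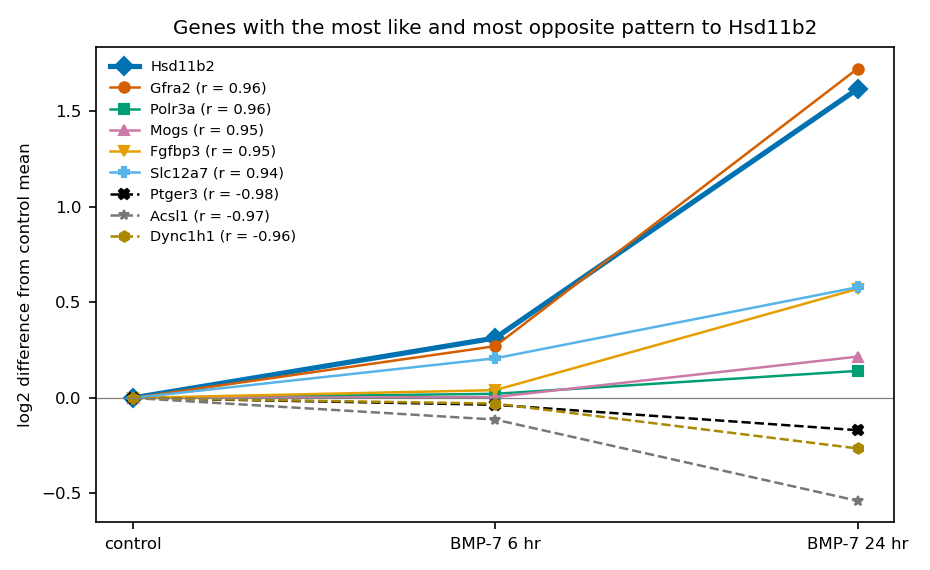
Log2 difference from the control mean (y axis) in control, BMP6h and BMP24h cultures for Hsd11b2, the 5 genes with the most like pattern (solid lines) and the 3 with the most opposite (dashed lines) over 9 arrays. Gfra2 reached 1.72 at 24 hr, close to the 1.62 of Hsd11b2, while the other genes stayed between -0.54 and 0.58.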

How the data were processed

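The authors read the 9 arrays into Partek Genomics Suite, made log2 expression values with RMA and took out the difference between batches; which RMA version they used is not given in the sources used here. The deposited log2 values ran from 2.69 to 14.38, the largest difference between batch means of a probe set was 6.7e-05, and no arrays were identical. Control probe sets (59 of 8799) were left out. By GEO's platform annotation, 7006 of the 8740 tested name 1 gene (4736 genes), 308 name several and 1426 are unnamed here.

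The model, fitted by limma 3.58.1 (R 4.3.3), held condition and batch as in the Methods, which leaves 5 residual degrees of freedom, and with 0.05 as the threshold of the adjusted p. "Rose" and "fell" are kept for values past it. The main fit has no replicate block, since the Methods fit only treatment and batch. Each dissection supplied all 3 conditions, but no label ties a replicate number to a dissection. Between arrays with the same replicate number, r of the deviations from condition means ran from -0.74 to 0.53. Batch removal forces the deviations of the replicate 1 arrays to cancel out, so these r cannot decide whether arrays are paired. Members and lists were chosen with earlier results of these data known. Named genes are all members, the 3 highest and 3 lowest of each list at 24 hr, any past the test, and the 5 most like and 3 most opposite to Hsd11b2. The limma p-values measure the residual spread between arrays after condition and batch, drawn towards that of all probe sets, with 3 dissections per condition. Alternatives are given in the closing section.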

Additional observations from a re-analysis of the deposited data

How the results depend on the processing

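Across 20 alternative settings, the difference of Hsd11b2 kept its sign in all 3 comparisons. For BMP24h over control it was 1.27 within batch 1, which is the difference between the replicate 1 arrays, and 1.49 to 1.76 when 1 array was left out. None of the 6 other member probe sets passed the adjusted test under any setting with a test; the lowest adjusted p was 0.0532, for Hsd11b1 at 24 hr with array weights (log2 difference -0.33). The dim filter removed all Nr3c1 and Nr3c2 probe sets. With a replicate block (the replicate number replacing the batch term), limma called 0 of these 6 and 0 of the list genes, and no call changed.

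Array weights gave the list calls: at 6 hr 1 glucocorticoid target (Dusp1), at 24 hr 1 chaperone (Hspa5, 0.49) and 2 nuclear receptors (Rarb and Thra, both lower), and between the times 1 nuclear receptor (Rxrg). In the same order of comparisons, that setting called 29, 280 and 198 of all 8740 probe sets, against 4, 19 and 0 in the main fit. These list calls therefore say little about the lists. Some values changed sign. With array weights Nr3c2 (M36074_at) between the times was 0.084, Nr3c1 (rc_AI137538_at) at 24 hr -0.0022, Pdk4 -0.0085, Scnn1b -0.053 and Ncoa1 -0.0078. Within batch 2 Nr3c1 had 0.014 at 24 hr (rc_AA893618_s_at) and 0.0083 at 6 hr (rc_AI137538_at), Ndrg2 -0.042 and Stip1 -0.076. Within batch 1, with 1 array per condition and no test, M36074_g_at of Nr3c2 had 0.003 at 6 hr, 0.010 at 24 hr and 0.0072 between the times, M36074_at 0.15 between the times, Hsd11b1 0.014 at 6 hr and rc_AI137538_at of Nr3c1 -0.032 at 24 hr. At 24 hr Nr1h3 had -0.042, Crh -0.042, Scnn1a -0.0075, Scnn1b -0.13, Ncoa1 -0.056 and Dnajb1 0.014 there.

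Leaving out 1 array gave ranges that cross 0. At 6 hr these were -0.20 to 0.58 for Nr3c1 (M14053_at), -0.089 to 0.044 for Nr3c1 (rc_AI137538_at) and -0.18 to 0.0054 for Hsd11b1. Between the times they were -0.16 to 0.15 for M36074_at and -0.12 to 0.038 for M36074_g_at of Nr3c2. At 24 hr they were -0.10 to 0.11 for Nr3c1 (rc_AA893618_s_at), -0.17 to 0.73 for Pdk4, -0.013 to 0.46 for Crh, -0.035 to 0.73 for Ndrg2, -0.081 to 0.62 for Scnn1b, -0.51 to 0.11 for Edn1, -0.12 to 0.35 for Stip1, -0.091 to 0.23 for Hsp90b1 and -0.34 to 0.0062 for Dnajb1. The causes were not tested. With 3 arrays per condition and probe sets of unknown detection, small changes of the receptors were not detectable.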
